A study of Salmo salar with 12 samples.

Results

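The miR-192 and miR-194 families were described in adherent cells of Atlantic salmon (Salmo salar) from the distal intestine (AIC, 6 libraries) and from the head kidney (AKC, 6 libraries). Members were all rows of the deposited count table named ssa-miR-192 or ssa-miR-194, with or without a letter, followed by an arm and with no locus number. This rule gave 8 of the 361 mature miRNAs in the table, namely 2 rows of miR-192 (ssa-miR-192a-5p and ssa-miR-192b-5p) and 6 rows of miR-194 (the 5p and 3p arms of the paralogs a, b and c). The study sampled 6 fish and dissected both organs, but states no pairing of libraries. The fish, about 550 g on average, were fasted before sampling, and no treatment differed between the groups. Leukocytes isolated from each organ were left to adhere for 2 days at 12°C in L-15 medium, the adherent cells were detached with EDTA, and 50 ng of their RNA was used per small RNA library. Each library is therefore a mixture of the adherent cell types of its organ, and the study set AIC against AKC as the reference.

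miR-192 and miR-194 are small regulatory RNAs that repress target mRNAs through base pairing. In mammals they are processed from shared transcripts that are switched on by hepatocyte nuclear factors, and both are abundant in the epithelium of intestine and kidney tubules and in liver. Each hairpin precursor gives a 5p and a 3p arm, and usually one arm is kept in the silencing complex while the other is degraded. The names a, b and c are paralogs, related mature sequences from separate hairpins that differ by few bases. No sequences of these miRNAs were used here, so they are named only.

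Total counts per library ranged from 2253241 to 11804738 in AIC and from 5791812 to 19586480 in AKC. Levels are CPM, counts scaled to a common library size, after scaling with TMM factors, and 3 counts, taken as the smallest countable signal, corresponded to between 0.417 and 1.59 CPM in AIC and between 0.105 and 0.492 CPM in AKC. Counting error alone is covered by these floors and by the binomial intervals of shares, because copies made by PCR are not independent molecules. Marker miRNAs of other cells were summed over lists. The epithelial list (miR-200, miR-203, miR-205 and miR-429, with counts in 7 of 11 rows) reached between 3698 and 4955 CPM in AIC and between 0.213 and 134 CPM in AKC, and its only tested row, ssa-miR-200a-3p, was called higher in AIC. The endocrine list (miR-375 and miR-7, 2 tested rows) reached between 238217 and 466266 CPM in AIC and between 58.2 and 190 CPM in AKC, with ssa-miR-375-3p called higher. The leukocyte list (miR-142, miR-146, miR-150 and miR-155, with counts in 7 of 8 rows) overlapped between groups, with 2682 to 30319 CPM in AIC and 9072 to 24307 CPM in AKC. Of its 3 tested rows, ssa-miR-155-5p was called lower in AIC and none was called higher. Smooth muscle and fibroblast miRNAs reached at most 9.45 CPM in AIC and 55.1 CPM in AKC, endothelial miR-126 at most 190 CPM in AIC and 68.9 CPM in AKC, and striated muscle miRNAs at most 63.9 CPM in AIC and 9.90 CPM in AKC. The rows of miR-144 (red blood cell), miR-9 (neuronal) and miR-122 (hepatocyte) had 0 counts in all libraries. The lists also held miR-451 (red blood cell), miR-124 (neuronal), miR-223 (leukocyte) and miR-141 (epithelial), but none of these had a row to count. How far each cell type accounts for the members' levels was not tested, and in such mixtures fewer cells of a type and less RNA per cell cannot be told apart.

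AKC replicates 1 and 3 stood apart from the other AKC libraries for several of the miRNAs described here, and group means of the miRNAs that this touches are given with and without them. The members were otherwise close to absent from AKC. Summed over both paralogs, miR-192 made up 0.401% ± 0.195 of a library in AIC, compared with 0.000645% ± 0.00104 in AKC (SD, n = 6 each). Without AKC replicate 3 the AKC share was 0.000251%, and without replicates 1 and 3 it was 5.2e-05%. The 3 miR-194 5p rows together made up 0.0761% ± 0.0562 in AIC, compared with 0.000421% ± 0.00101 in AKC (SD, n = 6 each). The AKC mean rested on replicate 3, without which it was 8.75e-06%.

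ssa-miR-192a-5p, the most abundant member, had at least 2058 CPM in every AIC library, with a median of 2448 CPM and a highest value of 5958 CPM. In AKC its lowest, median and highest values were 0.164, 0.264 and 19.9 CPM. The groups did not overlap, and the AKC values were uneven, with 6.79 CPM in replicate 1 and 19.9 CPM (263 counts) in replicate 3, while the other AKC libraries had 1 to 4 counts. Its mean level was 3315 ± 1645 CPM in AIC and 4.59 ± 7.94 CPM in AKC (SD, n = 6 each), or 0.217 ± 0.0568 CPM in AKC without replicates 1 and 3 (SD, n = 4). By mean level ssa-miR-192a-5p ranked 17 among all miRNAs in AIC.

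ssa-miR-192b-5p ranged from 791 to 3246 CPM in AIC (median 1654) and from 0 to 0.385 CPM in AKC (median 0.188). Its AKC counts were at most 11, and replicates 3 and 6 of AKC had 0 counts, which allows up to the floor of 3 counts in each. Unlike its paralog, ssa-miR-192b-5p therefore had no AKC library that stood far above the rest, and its rank by mean level was 22 in AIC.

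ssa-miR-194a-5p, the leading arm of miR-194, ranged from 386 to 1260 CPM in AIC (median 744). In AKC it ranged from 0 to 18.9 CPM (median 0.0879), and the highest value was that of replicate 3 with 250 counts, while every other AKC library had at most 3. The AKC mean was 3.20 ± 7.69 CPM (SD, n = 6), and 0.0482 ± 0.0595 CPM without replicates 1 and 3 (SD, n = 4). All AIC libraries lay above all AKC libraries.

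**Figure D1:**
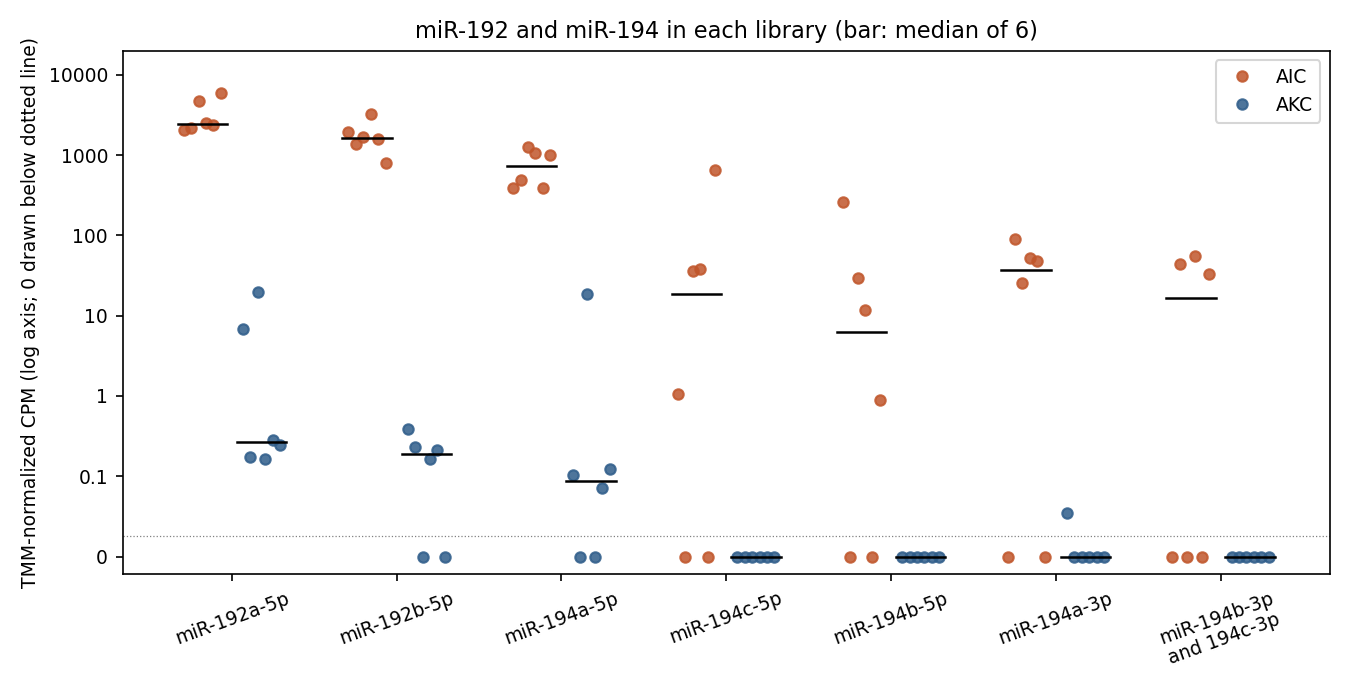
TMM-normalized CPM on a log axis of each miR-192 and miR-194 row in the 6 AIC libraries (left in each pair) and the 6 AKC libraries (right), with 0 drawn below the dotted line and a bar at the median. The 3 most abundant rows are at least 386 CPM in every AIC library and at most 19.9 CPM in AKC, whereas the other rows are at 0 in 2 or 3 AIC libraries.

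These 3 rows passed the filter on low counts (edgeR's filterByExpr) and were tested along with 73 other miRNAs, and the 5 remaining members did not pass. Each passed through its AIC libraries, so a difference was built into the choice of tested rows. All 3 were called higher in AIC, against 17.1% of all tested miRNAs (quasi-likelihood test of edgeR, Benjamini-Hochberg adjusted p below 0.05 and at least a log2 fold change of 1 in size). In either direction the call was made for 26.3%. Non-overlap in that direction was found for 15.8% of all tested miRNAs. The log2 fold change of AIC over AKC was 13.24 for ssa-miR-192b-5p (standard error 1.07, 95% confidence interval 10.94 to 15.53, edgeR adjusted p = 1.33e-07), the highest of the 76 tested. This row had at most 11 counts in any AKC library and 0 in 2 of them, so the size and rank of its value are not well resolved. For ssa-miR-192a-5p the log2 fold change was 9.49 (standard error 1.45, interval 6.40 to 12.58, edgeR adjusted p = 0.000187), which ranked 3. The value of ssa-miR-194a-5p, 7.90, ranked 6 (standard error 1.86, interval 3.93 to 11.87, edgeR adjusted p = 0.00396). The median over all tested miRNAs was 0.09. For each of the 3, the exact permutation test on log2(CPM + 1), two-sided, gave p = 0.00216, the smallest that 6 against 6 libraries allow. Both this test and the edgeR fit treated all libraries as independent, although both organs were taken from the study's 6 fish.

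The distance between the 3 fold changes depended on AKC replicates 1 and 3, and also on the model. With all libraries kept and the replicate number as a block, ssa-miR-192a-5p, ssa-miR-192b-5p and ssa-miR-194a-5p had log2 fold changes of 12.00, 13.56 and 12.26. Leaving out AKC replicate 1 alone gave 9.44, 13.41 and 7.43 in the same order. Without replicate 3 the log2 fold change of ssa-miR-194a-5p was 13.30 and that of ssa-miR-192a-5p was 11.31. Without both libraries, an alternative chosen after seeing the data, it was 13.68 for ssa-miR-192a-5p, 13.26 for ssa-miR-192b-5p and 13.33 for ssa-miR-194a-5p, and all 3 remained called (edgeR adjusted p = 1.87e-10, 1.38e-08 and 1.68e-07). The libraries left out held the highest AKC counts of ssa-miR-192a-5p and ssa-miR-194a-5p, so these calls and smaller p values are no added support. In the AKC libraries then left, the miR-192 rows had at most 4 counts and ssa-miR-194a-5p at most 2. These counts lie at or near the floor of 3, so the sizes of these fold changes and their closeness are not resolved. For ssa-miR-194a-5p the same holds without replicate 3 alone, where it had at most 3 counts. The split of all calls into 13 higher and 7 lower moved with the scaling, to 9 higher and 20 lower with total counts alone and to 9 higher and 24 lower with the mapped reads as library size. With these scalings the median over the tested miRNAs was -0.65 and -1.18, and the members stayed called, with log2 fold changes of at least 7.13.

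**Figure D2:**
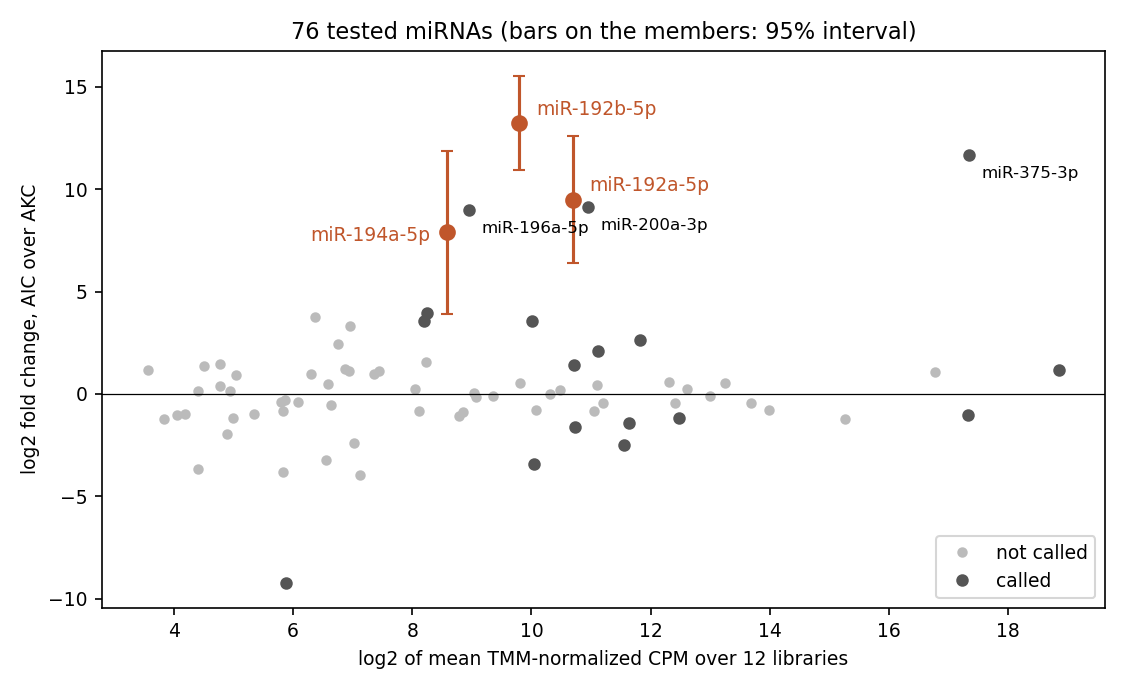
log2 fold change of AIC over AKC against the log2 of the mean CPM over the 12 libraries for the 76 tested miRNAs, dark points being called. ssa-miR-192b-5p lies highest at 13.24, and its bar, the 95% interval, overlaps those of ssa-miR-192a-5p and ssa-miR-194a-5p, which also overlap each other.

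The rows of the epithelial list differed in which AKC libraries held them. ssa-miR-200a-3p, of the miR-200 family that maintains the epithelial state, had 7.21 CPM in AKC replicate 1, 33.8 CPM (447 counts) in AKC replicate 3 and at most 8 counts in the other AKC libraries. The number of ssa-miR-192a-5p counts per ssa-miR-200a-3p count was between 0.524 and 1.47 in AIC. It was 0.942 in AKC replicate 1 and 0.588 in AKC replicate 3, so both AKC values lay inside the AIC range. The other tested members did not keep to their AIC ranges per ssa-miR-200a-3p count. ssa-miR-192b-5p lay below its range in AKC replicates 1 and 3, with 11 and 0 counts. ssa-miR-194a-5p lay below its range in AKC replicate 1 (3 counts) and above it in AKC replicate 3 (250 counts). The number of ssa-miR-375-3p counts per ssa-miR-200a-3p count was between 65.8 and 98.2 in AIC, against 11.1 and 5.11 in those AKC libraries. ssa-miR-203b-3p, whose family is known from stratified epithelium, had 0 counts in all AIC libraries, against 227 in AKC replicate 1, 486 in AKC replicate 3 and 0 in the other AKC libraries. ssa-miR-203a-3p had 1 count in AKC replicate 1 and 486 in replicate 3, the same number there as ssa-miR-203b-3p. Whether the same reads were counted for both rows is not known. ssa-miR-205a-5p did not follow them, with counts only in replicates 4 and 5 of AIC (at most 273), against 352, 256 and 299 counts in AKC replicates 3, 4 and 6 and 0 in the other AKC libraries. ssa-miR-200b-5p, ssa-miR-205b-5p and ssa-miR-429-3p had counts in 3 to 5 AIC libraries, against 0 in AKC replicates 1 and 3, and the only count of these in AKC was 1 of ssa-miR-429-3p in replicate 6. Whether epithelial cells or their RNA were present in AKC replicates 1 and 3 was not tested. Any part of them in the AKC values of miR-192a and miR-194a was not tested either.

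**Figure D3:**
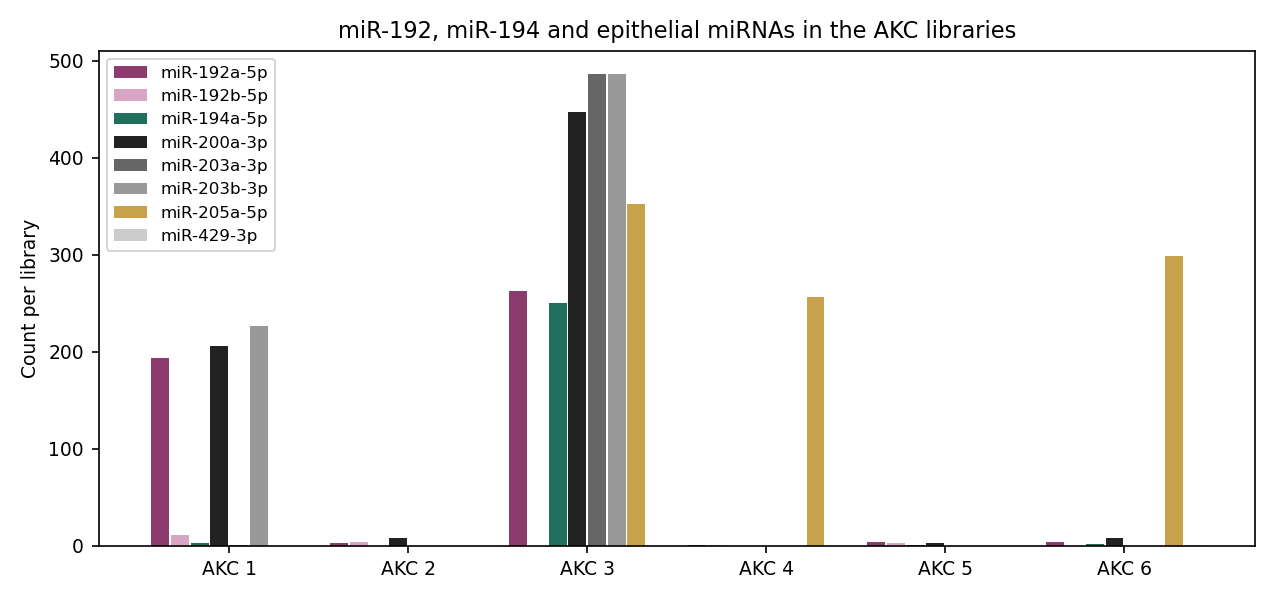
Counts in each AKC library of ssa-miR-192a-5p, ssa-miR-192b-5p, ssa-miR-194a-5p and the 5 rows of the epithelial list with a count in AKC. Bars of the members above 11 counts occur only in replicates 1 and 3, and so do those of ssa-miR-200a-3p and both miR-203 rows, whereas ssa-miR-205a-5p reaches 256 to 352 counts in replicates 3, 4 and 6. Both miR-203 rows have equal counts in replicate 3.

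The miR-192 paralogs were next compared within libraries, where the scaling cancels. ssa-miR-192a-5p took 63.0% ± 16.1 (SD, n = 6) of the counts of both paralogs in AIC. The share was lowest in AIC replicate 4 with 43.5% (95% exact binomial interval 43.0 to 44.0) and highest in AIC replicate 6 with 88.3% (interval 87.8 to 88.8). Only AIC replicate 4 had more of ssa-miR-192b-5p than of ssa-miR-192a-5p. In AKC replicate 1 the share of ssa-miR-192a-5p was 94.6% (interval 90.6 to 97.3), and in AKC replicate 3 it was 100% (263 of 263 counts, interval 98.6 to 100). Both lay above every AIC library. The other AKC libraries held 2 to 7 counts of the paralogs together, and with only 2 AKC libraries of at least 10 counts the groups were not tested against each other.

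Whether the sum of the paralogs varied less than each paralog depended on the scaling. The summed CPM of miR-192 had a coefficient of variation of 27.5% over the AIC libraries, against 49.6% for ssa-miR-192a-5p alone and 46.2% for ssa-miR-192b-5p alone. As a percent of total counts the sum varied by 48.5%, against 72.8% for ssa-miR-192a-5p and 35.5% for ssa-miR-192b-5p. The counts of ssa-miR-192a-5p per count of ssa-miR-192b-5p spanned 0.770 to 7.53 in AIC. The counts of the miR-192 sum per count of the miR-194 5p sum spanned 4.10 to 10.2 in AIC, against 68.3 in AKC replicate 1 and 1.05 in AKC replicate 3. AKC replicate 1 thus had miR-192a with almost no miR-194 (3 counts), whereas AKC replicate 3 had both at near equal counts. These sums were chosen after the values were seen and are a description.

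Among the miR-194 5p paralogs ssa-miR-194a-5p led in every AIC library, with 85.1% ± 19.5 (SD, n = 6) of their counts. The minor paralogs appeared in different libraries. ssa-miR-194b-5p had 487 counts in AIC replicate 1, which is 40.0% of the miR-194 5p counts there (95% exact binomial interval 37.2 to 42.8), and at most 186 counts in the other AIC libraries. ssa-miR-194c-5p had 1465 counts in AIC replicate 6, or 39.6% (interval 38.0 to 41.2), and at most 273 in the others. In AIC replicates 2 and 5 both minor paralogs had 0 counts, of 2047 and 828 miR-194 5p counts. For each paralog the exact binomial interval reached 0.180% and 0.445%, which covers counting error alone. Their mean levels in AIC were 121 ± 260 CPM for ssa-miR-194c-5p (SD, n = 6), while ssa-miR-194b-5p had a median of 6.28 and a highest value of 258 CPM, and each had 0 counts in all AKC libraries. In AKC replicate 3 all 250 miR-194 5p counts were of ssa-miR-194a-5p.

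The 3p arm of miR-194a was the minor arm in every AIC library, although its share was not constant. ssa-miR-194a-3p took 15.4% of the counts of both miR-194a arms in AIC replicate 2 (95% exact binomial interval 14.0 to 16.9) and 10.9% in AIC replicate 5 (interval 8.94 to 13.1). It took 4.69% in AIC replicate 4 (interval 4.24 to 5.18) and 2.00% in AIC replicate 3 (interval 1.71 to 2.33). In AIC replicates 1 and 6 it had 0 counts, beside 728 and 2234 counts of the 5p arm. The exact binomial intervals there reached 0.505% and 0.165%, which covers counting error alone. Its level was 36.1 ± 34.7 CPM in AIC (SD, n = 6), and in AKC it had 1 count in replicate 1 and 0 in the other libraries.

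ssa-miR-194b-3p and ssa-miR-194c-3p had identical counts in all libraries, the only such pair of rows with counts in the table, and were treated as 1 row. It had 183, 398 and 74 counts in AIC replicates 2, 4 and 6 and 0 in AIC replicates 1, 3 and 5 and in all AKC libraries. In AIC replicate 2 this 3p row was present with 0 counts of the 5p arms of miR-194b and miR-194c, and in AIC replicate 1 the 5p arm of miR-194b was present with 0 counts of the 3p row. Arms of a hairpin were thus not always detected together.

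**Figure D4:**
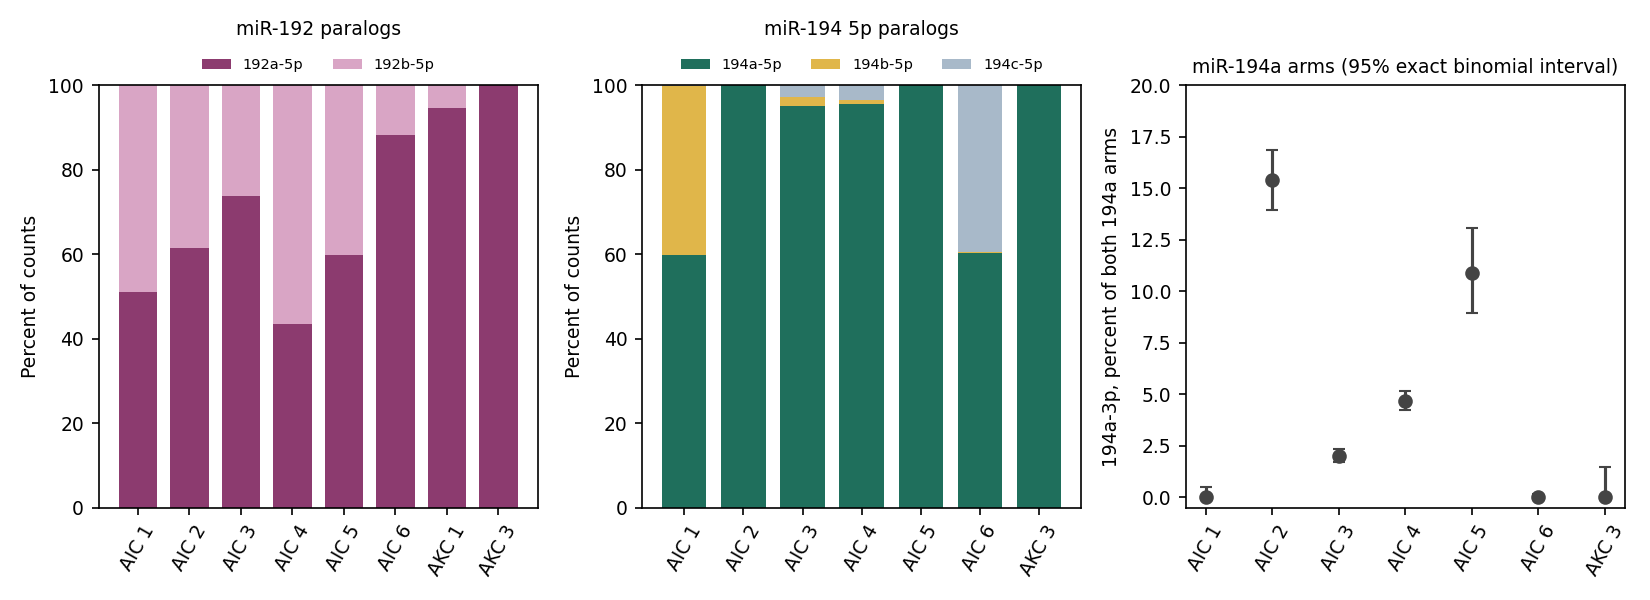
Percent of counts per library taken by the miR-192 paralogs (left), the miR-194 5p paralogs (middle) and the 3p arm of miR-194a (right, with 95% exact binomial intervals), for the 6 AIC libraries and the AKC libraries with at least 10 counts. ssa-miR-192a-5p spans 43.5% to 88.3% in AIC, the minor miR-194 paralogs reach 40.0% and 39.6% in replicates 1 and 6, and the 3p arm spans 0 to 15.4%.

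The 5 members that did not pass the filter overlapped between the groups, since each had 0 counts in at least 2 AIC libraries. Two-sided p values of the exact permutation test were 0.0606 for each of ssa-miR-194c-5p, ssa-miR-194b-5p and ssa-miR-194a-3p and 0.182 for the shared 3p row. Without a filter, non-overlap with AIC higher was found for 6.67% of the miRNAs with a count. edgeR without a filter called these rows, 4 when the identical pair is counted once, higher in AIC (adjusted p between 0.000583 and 0.0356), a call made for 17.8% of the 180 miRNAs with a count, or 22.8% in either direction. DESeq2 without a filter called them except ssa-miR-194c-5p, for which it gave no adjusted p. Without AKC replicates 1 and 3, an alternative chosen after seeing the data, ssa-miR-194a-3p passed the filter and was called higher in AIC (edgeR adjusted p = 0.0219). The smaller group then had 4 libraries, and this row had more than 3 counts in 4 AIC libraries, so it passed through AIC alone. The AKC libraries left out held 1 and 0 counts of it, so this call is no added support.

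In AIC the mean levels ran in the order ssa-miR-192a-5p, ssa-miR-192b-5p, ssa-miR-194a-5p, ssa-miR-194c-5p, ssa-miR-194b-5p, ssa-miR-194a-3p and the shared 3p row. Neighbours in this order were compared by their count ratios within the AIC libraries (log2 ratio with a pseudocount of 0.5, exact sign-flip permutation test, two-sided, Benjamini-Hochberg adjustment over 6 pairs). The order was taken from the same libraries, so the p values do not test an order set beforehand. The mean log2 ratio of ssa-miR-192a-5p over ssa-miR-192b-5p was 0.89 ± 1.17 (SD, n = 6, higher in 5 of 6 libraries, exact p = 0.09375, adjusted 0.1875). ssa-miR-192b-5p over ssa-miR-194a-5p gave 1.26 ± 1.01 (SD, n = 6, higher in 5 of 6 libraries, exact p = 0.0625, adjusted 0.1875). ssa-miR-194a-5p exceeded ssa-miR-194c-5p in 6 of 6 libraries, by 6.90 ± 4.22 (SD, n = 6, exact p = 0.03125, the smallest that 6 libraries allow, adjusted 0.1875). The mean log2 ratio was 0.60 for ssa-miR-194c-5p over ssa-miR-194b-5p, -1.16 for ssa-miR-194b-5p over ssa-miR-194a-3p, against the order of the means, and 1.63 for ssa-miR-194a-3p over the shared 3p row. Each of these was higher in 3 of 6 libraries, with adjusted p values between 0.5625 and 0.875 in the exact test. By median the order of the minor rows was ssa-miR-194a-3p (36.8 CPM), ssa-miR-194c-5p (18.6 CPM), the shared 3p row (16.4 CPM) and ssa-miR-194b-5p (6.28 CPM). With 6 libraries and 6 pairs the adjusted p can pass 0.05 only if several pairs reach the smallest p, so these p values do not show that neighbours were alike.

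Across the AIC libraries the members did not rise and fall together in a way that passed the test. The log2(CPM + 1) of ssa-miR-192a-5p and ssa-miR-194a-5p had Pearson's r = 0.743 (exact permutation p = 0.101) and Spearman's rho = 0.771 (exact permutation p = 0.103, n = 6), and r was 0.672 without the 2 libraries farthest from the median. ssa-miR-192a-5p and ssa-miR-192b-5p had r = -0.590 (exact permutation p = 0.265) and rho = -0.314 (exact permutation p = 0.564), and r turned to 0.522 without the 2 farthest libraries. For ssa-miR-192b-5p and ssa-miR-194a-5p the values were r = 0.0177 (exact permutation p = 0.960) and rho = 0.0857 (exact permutation p = 0.919). The Benjamini-Hochberg adjusted values of the r of these pairs were 0.710, 0.875 and 0.972, and of their rho 0.865, 0.980 and 0.980. Of 21 pairs of rows, 18 included a row with zeros in AIC, and the smallest adjusted value over all pairs was 0.408.

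Over the 12 libraries, the tested miRNAs outside the families whose pattern was most like the mean log2 level of the 3 tested members were ssa-miR-200a-3p (Pearson's r = 0.992), ssa-miR-375-3p (r = 0.991) and ssa-miR-196a-5p (r = 0.956). These values mostly reflect the distance between the groups. Within the 6 AIC libraries the same comparison gave r = 0.419, -0.174 and -0.0645. ssa-miR-200a-3p had 3943 ± 479 CPM in AIC and 7.03 ± 13.4 CPM in AKC (SD, n = 6 each), or 0.292 ± 0.232 CPM in AKC without replicates 1 and 3 (SD, n = 4).

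**Figure D5:**
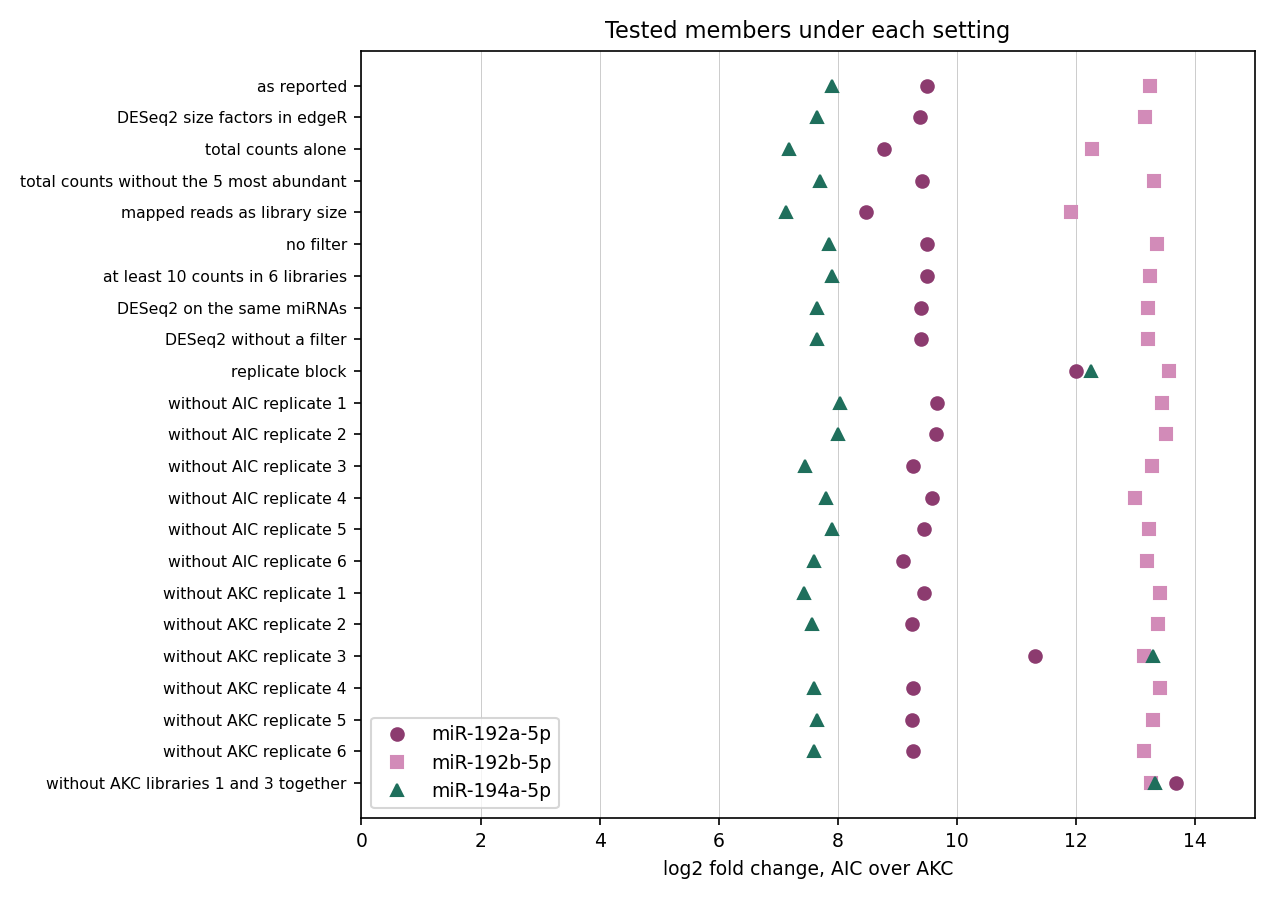
log2 fold change of AIC over AKC of the 3 tested members under each processing setting and with libraries left out. ssa-miR-192b-5p stays between 11.91 and 13.56, whereas ssa-miR-192a-5p and ssa-miR-194a-5p move to 13.68 and 13.33 once AKC replicates 1 and 3 are both left out. The AKC counts then left are at or near the floor of 3 counts, so the sizes of these fold changes are not resolved. For ssa-miR-194a-5p the value is already 13.30 without replicate 3 alone. With all libraries kept and the replicate block, ssa-miR-192a-5p and ssa-miR-194a-5p reach 12.00 and 12.26. ssa-miR-192b-5p has at most 11 counts in any AKC library, so the size of its fold change is not well resolved under any setting.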

How the data were processed

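Small RNA libraries (NEXTflex Small RNA-Seq Kit v3, 25 PCR cycles) were made from 6 AIC and 6 AKC samples. Adapters were trimmed by the authors with Cutadapt (1.12 in the submitters' processing notes), and the FASTX-Toolkit was used to drop reads of low quality. miRDeep2 then mapped the reads to ICSASG_v2 (mapper.pl) and counted salmon miRBase entries (quantifier.pl). The deposited values are estimated counts for each mature miRNA in each library, not normalized. In 12 of 361 rows some values had fractions, none of them a member, and all values were rounded. Some large deposited values already appeared shortened, such as 1780000 for ssa-let-7a-5p in AIC replicate 1. Total counts are therefore not exact to the last digit. How reads that fit several paralogs were assigned is not given in the sources used here. The members and lists were chosen with earlier results of these data known.

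From the counts, edgeR 4.0.16 in R 4.3.3 (filterByExpr with a minimum count of 10, TMM factors, quasi-likelihood test, Benjamini-Hochberg adjustment over 76 miRNAs) compared AIC with AKC. A call required an adjusted p under 0.05 with a log2 fold change of 1 or more in size. Standard errors and 95% intervals correspond to the F statistic of that test. The fit was run on simulated data with smaller fold changes than those of the members, so this does not check the members' intervals. Shares, permutation tests and correlations used Python 3.11.15, NumPy 2.4.6, SciPy 1.17.1 and pandas 2.3.3. The alternatives were DESeq2 1.42.0 (Wald test, and size factors in edgeR), total counts with and without the 5 most abundant miRNAs, library sizes from the study's mapped reads, fitting without a filter, requiring 10 counts in 6 libraries, the replicate number as a block, other pseudocounts and count minimums, and leaving out libraries. Named were all members, the highest called miRNA of each marker list and the 3 most similar tested miRNAs. The other rows of the epithelial list, ssa-miR-150-5p, ssa-miR-21b-3p and ssa-miR-737-5p were named after their values were seen. The study sampled 6 fish, dissected both organs and states no pairing of libraries across organs. The main fit and the permutation tests between groups therefore treated libraries as independent and did not account for shared fish.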

Additional observations from a re-analysis of the deposited data

Results flagged for a closer look

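For 11 sets of 6 libraries (a miRNA in AIC or in AKC), the gap between the most extreme value and its neighbour was divided by the range. In 5 sets it exceeded Dixon's 95% limit of 0.625, a limit that chance exceeds in about 5% of sets of normally distributed values. The levels here are skewed and hold many zeros, so the number of sets past the limit cannot be read against that share. In AKC replicate 3, ssa-miR-192a-5p had 19.9 CPM, with 6.79 CPM in the next highest AKC library, and ssa-miR-194a-5p had 18.9 CPM, with 0.122 CPM in the next highest. In AKC replicate 1, ssa-miR-194a-3p had 0.0350 CPM from a single count, with 0 in the other AKC libraries, which is below the floor of 3 counts. In AIC replicate 6, ssa-miR-194c-5p had 651 CPM, with 37.9 CPM in the next highest AIC library. In AIC replicate 1, ssa-miR-194b-5p had 258 CPM, with 29.4 CPM in the next highest.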

How the results depend on the processing

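The 3 tested members kept their direction and their call under all 22 alternatives, with log2 fold changes from 8.48 to 13.68 for ssa-miR-192a-5p, from 11.91 to 13.56 for ssa-miR-192b-5p and from 7.13 to 13.33 for ssa-miR-194a-5p. These rows passed the filter through their AIC libraries and did not overlap between the groups, so the kept direction and call are no added support. Leaving out single libraries gave ranges of 9.09 to 11.31, 13.00 to 13.51 and 7.43 to 13.30. The alternative requiring 10 counts in 6 libraries kept the same 76 miRNAs and gave the same values, so it is no separate check. Of all miRNAs, 20 were called, against 33 with the mapped reads as library size, 33 with DESeq2 on the same miRNAs (17 higher and 16 lower in AIC), 41 without a filter and 57 with DESeq2 without a filter, where more miRNAs were fitted, and 18 to 22 with a library left out. With the replicate block, 22 were called and the members' log2 fold changes were 12.00, 13.56 and 12.26. Same-numbered libraries did not deviate together (mean correlation -0.00143, and none correlated best with its own number), so the numbers are not shown to pair the libraries. Of the neighbours in the order of levels, ssa-miR-194b-5p over ssa-miR-194a-3p ran from -3.37 to 0.52 and ssa-miR-194c-5p over ssa-miR-194b-5p from -1.12 to 2.24 with an AIC library left out, both changing sign. The mean share of ssa-miR-192a-5p in AKC was 97.3% over 2 libraries with at least 10 counts and 74.1% over 6 libraries with at least 1. The correlation of ssa-miR-192b-5p with ssa-miR-194a-5p turned to -0.101 with DESeq2 size factors and to -0.0426 without the 2 farthest libraries, and that of the miR-192 paralogs to 0.522 without the 2 farthest. In AIC the coefficient of variation of the miR-192 sum was 27.5% with TMM scaling and 48.5% as a percent of total counts. The cause of these changes was not tested. In AKC, 1 to 3 counts cannot be told from 0, so the levels of ssa-miR-192b-5p there are near the limit of depth. Without AKC replicates 1 and 3 the levels of ssa-miR-192a-5p and ssa-miR-194a-5p are near it too.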

Other observations

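The counts of the members fell into separate ranges. Of 84 values (7 rows with the identical pair counted once, in 12 libraries), 36 were 0, 14 lay between 1 and 11 and 34 were 74 or higher, and none (0) lay between 12 and 73. Over the 179 rows of the table with a count, taken the same way, 38 of 2148 values lay between 12 and 73, which is 3.30% of the values above 0. The limits of this range were taken from the members' own values, so finding none between them was built in. It does not set the members apart from the other rows.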
